A study of Fragaria vesca with 18 samples.

Results

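Transcripts of the flavonoid and anthocyanin pathway were followed through fruit development in the woodland strawberry Fragaria vesca, line Hawaii4, whose ripe fruit stays pale. The 8 members were chosen as fixed row IDs of the deposited count table, out of 28588 annotated genes and 61763 rows in all, and all 8 were found. They are CHS (FvH4_7g01160), CHI (FvH4_7g20870), F3H (FvH4_1g11810), F3'H (FvH4_5g14010), DFR (FvH4_2g39620), ANS (FvH4_5g01170), UFGT (FvH4_7g33840) and RAP (FvH4_1g27460). These gene names came with the list of IDs. The deposited files name no genes, and the RefSeq table used here matched 0 of the 28588 IDs, so neither the names nor the labelled tissue could be checked against annotation, and gene positions and sequences were not used here.

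The study sampled fruit at 3 stages that the labels set apart by achene colour; an achene is the seed-like true fruit that sits on the fleshy receptacle. Immature fruit had green achenes, and mature fruit had yellow or brown ones; the stages are called green, yellow and brown below. Each biological replicate combined fruit from several greenhouse plants, with no treatment, and total RNA was either depleted of ribosomal RNA (rRNA-depleted) or depleted of polyadenylated RNA (poly(A)-depleted) before stranded paired-end sequencing. That gave 18 libraries in 6 groups of 3.

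The flavonoid pathway builds coloured and colourless phenolic compounds from a phenylpropanoid precursor. Its early steps are shared by flavonols, proanthocyanidins (the tannins of young fruit) and anthocyanins, and its late steps lead to the red anthocyanins of ripe strawberry. CHS, chalcone synthase, makes the chalcone skeleton, CHI, chalcone isomerase, closes it into a flavanone, and F3H hydroxylates that to a dihydroflavonol. F3'H adds a hydroxyl group to the B ring, DFR reduces dihydroflavonols, and ANS oxidises the product to an anthocyanidin. UFGT attaches a sugar to the anthocyanidin, and RAP is a glutathione S-transferase-type protein that helps carry anthocyanins to the vacuole.

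Library totals ran from 47.2 to 76.9 M counts in rRNA-depleted and from 9.49 to 20.4 M in poly(A)-depleted libraries. Intergenic lncRNA rows took 1.49% to 2.67% of the counts in 8 of the 9 rRNA-depleted libraries and 5.02% in brown library 3; in poly(A)-depleted libraries they took 5.44% to 16.8%, most in brown library 3. Levels are CPM, counts relative to the library total, scaled by TMM, a method that corrects totals for composition, within each kind of library. A difference was called at an adjusted p under 0.05 in edgeR's quasi-likelihood test with Benjamini-Hochberg adjustment over all rows. Log2 fold changes carry standard errors worked back from that test, as the size of the change divided by the square root of its F statistic. In RNA from pooled fruit, fewer cells of a type and less RNA per cell cannot be told apart.

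In rRNA-depleted libraries, from green to brown fruit, the 6 members from CHS to ANS fell and the last 2, UFGT and RAP, were not called. The falls ranged from 3.48-fold for CHI to 228-fold for DFR. Of all 49283 rows tested, 14.5% were called in this comparison, 10.1% as lower. The median log2 fold change was -3.24 over the 8 members and 0.16 over all rows. None of the 6 had overlapping green and brown groups, but the share of all rows without overlap was not counted.

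**Figure D1:**
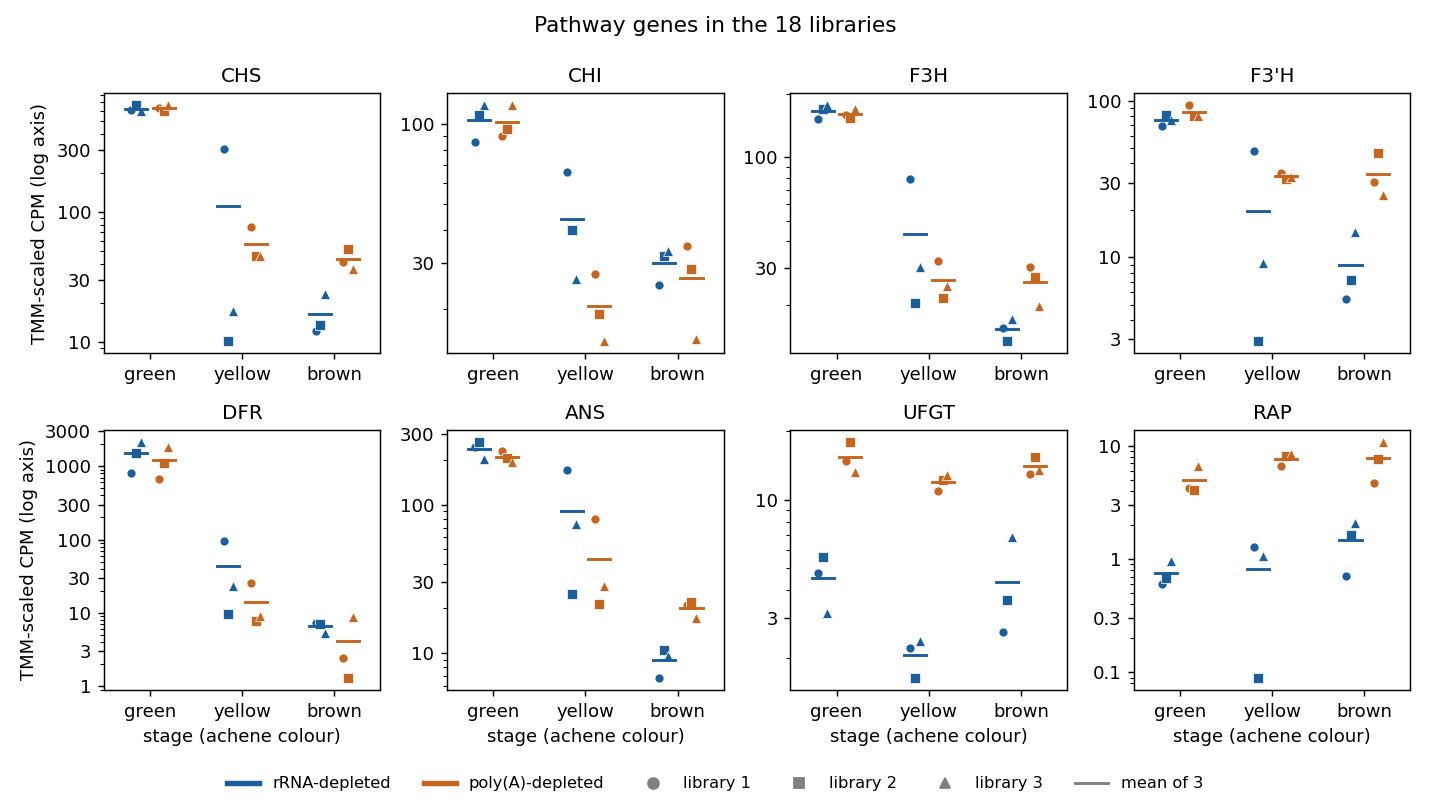
TMM-scaled CPM (log axis) of each member in each of the 18 libraries by stage, with circles, squares and triangles for libraries 1, 2 and 3 and lines for means of 3; the 2 kinds of library were scaled separately, so their heights are not to be compared. The first 6 members are highest in all green libraries, while UFGT and RAP stay at or below 18.02 CPM in every library.

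CHS, the entry enzyme, measured 608, 666 and 596 CPM in green libraries 1, 2 and 3, 306, 10.2 and 17.4 CPM in yellow ones and 12.2, 13.5 and 23.3 CPM in brown ones. The green libraries lay close together and far above the brown ones, and yellow library 1 stood nearer to green than the other yellow libraries did. The change from green to brown was -5.26 ± 1.05 (adjusted p = 0.00353). After poly(A) depletion CHS measured 629.7, 594 and 667 CPM at green, 77.0, 46.2 and 45.9 CPM at yellow and 41.4, 52.3 and 36.7 CPM at brown. There it fell by 3.86 ± 0.52 on the log2 scale (adjusted p = 0.00315), and yellow library 1 was again the highest of its stage.

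CHI, which acts next, changed least of the 6 in rRNA-depleted libraries. There it measured 85.7, 108 and 118 CPM at green, 65.8, 39.9 and 26.1 CPM at yellow and 24.7, 31.8 and 33.1 CPM at brown (-1.80 ± 0.40, adjusted p = 0.00668). The brown values lay within the range of yellow libraries 2 and 3 or just below it. In poly(A)-depleted libraries its change from green to brown was -1.96 ± 0.39 (adjusted p = 0.0192). That call was lost without green library 1 (adjusted p = 0.0527), green library 2 (0.0563), green library 3 (0.0761) or brown library 2 (0.0802). The groups did not overlap, but the share of all rows without overlap was not counted.

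F3H, the step into dihydroflavonols, measured 152, 169 and 177 CPM at green, 79.3, 20.4 and 30.2 CPM at yellow and 15.5, 13.5 and 17.2 CPM at brown in rRNA-depleted libraries. All 3 yellow libraries lay between the green and the brown ones. The change from green to brown was -3.43 ± 0.50 (adjusted p = 0.000333), and -2.64 ± 0.36 in poly(A)-depleted libraries (adjusted p = 0.00316).

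F3'H, the B-ring hydroxylase, measured 69.4, 81.0 and 75.2 CPM at green, 47.5, 2.92 and 9.24 CPM at yellow and 5.40, 7.17 and 14.5 CPM at brown in rRNA-depleted libraries. Yellow library 2 was below every brown library. The change from green to brown was -3.06 ± 0.75 (adjusted p = 0.0126), and the call was lost without brown library 1 (adjusted p = 0.0768), without brown library 2 (0.0677) and with scaling by library size only (0.0635). After poly(A) depletion F3'H measured 94.2, 80.1 and 80.3 CPM at green, 34.5, 31.6 and 32.5 CPM at yellow and 30.2, 46.5 and 24.9 CPM at brown (-1.33 ± 0.32, adjusted p = 0.0424), the smallest change of the 6 in that kind. Leaving out any of 7 of the 9 libraries ended that call, with adjusted p = 0.124, 0.11 and 0.123 without green libraries 1, 2 and 3, 0.0809, 0.0835 and 0.138 without yellow libraries 1, 2 and 3, and 0.0516 without brown library 2. The call was also lost with TMM factors from annotated genes (adjusted p = 0.0594) and with library size only (0.147). It was lost as well with no low-count filter (0.0511) and with only the 2 stages compared (0.211).

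DFR, which commits dihydroflavonols to the anthocyanin and proanthocyanidin branch, changed most under the ID given for it; whether another ID nearby carries that enzyme was not checked. It measured 808, 1529 and 2159 CPM at green, 96.9, 9.80 and 23.4 CPM at yellow and 7.38, 7.06 and 5.27 CPM at brown in rRNA-depleted libraries. No 2 stages overlapped, though the share of all rows separated so was not counted. The green libraries spread more widely than those of CHS, with a coefficient of variation of 45.1% against 5.999%. The change from green to brown was -7.83 ± 0.92 (adjusted p = 8.27e-05), the 35th lowest log2 fold change of 25577 annotated genes tested. Poly(A)-depleted libraries gave 666, 1118 and 1848 CPM of DFR at green, in the same order of libraries, and 2.40, 1.29 and 8.80 CPM at brown. Its change of -8.17 ± 1.14 (adjusted p = 0.00367) was the lowest among 25204 annotated genes. Without brown library 3, where DFR was highest, it was -9.32.

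Reads of DFR and of an antisense row cannot be separated with confidence. The exonic antisense lncRNA row exonAS.XLOC_005632 (chromosome 2, 28411367 to 28412428, plus strand, as the deposited transcript file gives it, in a build that the sources used here do not name) had 0.780 to 1 times the counts of DFR in the 17 libraries with at least 20 DFR counts. Its log2 CPM followed DFR with Pearson r = 0.9997 over the 18 libraries, the highest of 11688 such rows. For CHS, CHI, F3H, F3'H, ANS and RAP the most alike antisense row had r between 0.961 and 0.989, for UFGT 0.891. Those of CHS, F3H, F3'H, ANS and UFGT lay on another chromosome than the number in the gene's ID. Counts of these rows varied more against the gene, from 0.253 to 0.681 times for CHI (exonAS.XLOC_031541) and from 0.744 to 1.6 times for RAP (exonAS.XLOC_000523), for example. Whether the counting used strand is not given in the sources used here.

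ANS, which forms the anthocyanidin, measured 244, 265 and 203 CPM at green, 172, 25.0 and 74.1 CPM at yellow and 6.77, 10.5 and 9.61 CPM at brown in rRNA-depleted libraries. All yellow libraries lay between green and brown. The change from green to brown was -4.73 ± 0.63 (adjusted p = 0.000175). After poly(A) depletion ANS measured 229, 207 and 193 CPM at green, 79.6, 21.3 and 28.2 CPM at yellow and 21.1, 22.2 and 17.2 CPM at brown (-3.38 ± 0.55, adjusted p = 0.00762).

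UFGT, the glucosyltransferase, measured 4.73, 5.59 and 3.16 CPM at green, 2.20, 1.63 and 2.37 CPM at yellow and 2.59, 3.58 and 6.80 CPM at brown in rRNA-depleted libraries, so the green and brown groups overlapped (-0.056 ± 0.42, adjusted p = 0.944). RAP, which helps transport the product, measured 0.601, 0.679 and 0.955 CPM at green, 1.28, 0.0891 and 1.06 CPM at yellow and 0.711, 1.61 and 2.09 CPM at brown (0.98 ± 0.76, adjusted p = 0.408). The yellow low of RAP was 4 counts in a library of 75.2 M. Both genes were highest in brown library 3 and lowest in yellow library 2, the rRNA-depleted libraries with the largest and the smallest intergenic share (5.02% and 1.49%), and the part of this share in their levels was not tested. Over poly(A)-depleted libraries UFGT ranged from 10.95 to 18.02 CPM and RAP from 4.02 to 10.8 CPM over all stages. Neither was called between green and brown there (adjusted p = 0.701 and 0.255), and without brown library 1 RAP was called (1.08, adjusted p = 0.0301) in a fit that called 25.9% of all rows, 13.6% as higher.

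The 6 members from CHS to ANS were also lower in brown than in green fruit in poly(A)-depleted libraries, where 5.66% of all 48201 rows tested were called and 4.38% as lower. The median log2 fold change was -2.30 over the members and 0.15 over all rows. The 2 kinds of library may share fruit, so this is not an independent repeat.

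**Figure D2:**
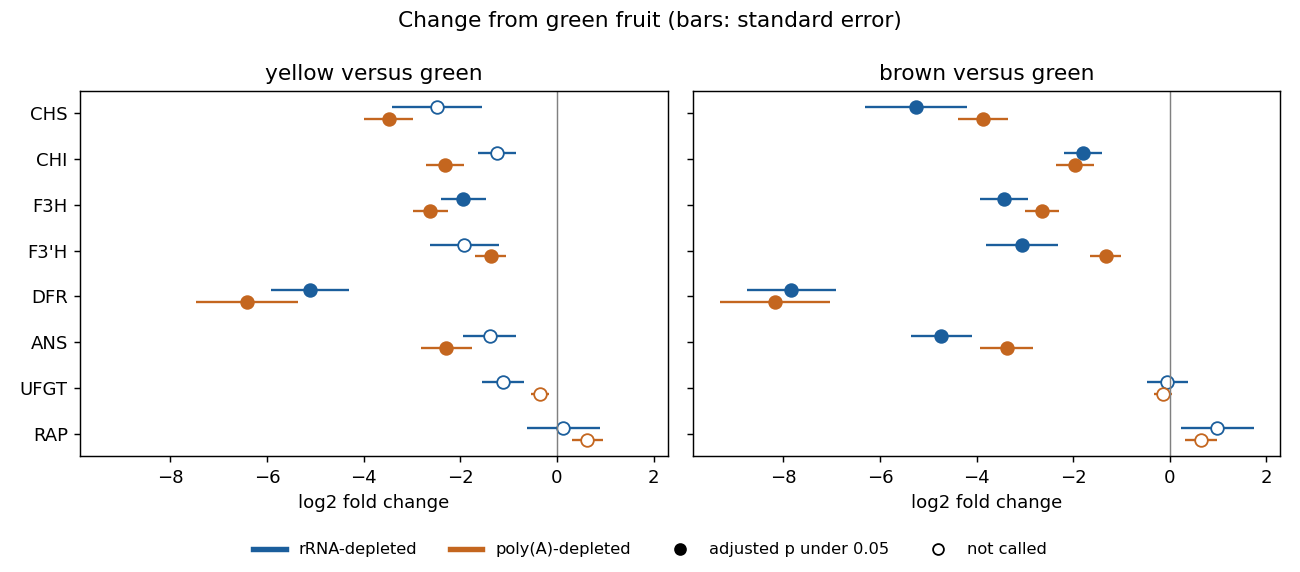
Log2 fold change of each member from green to yellow (left) and from green to brown fruit (right) in both kinds of library; bars are standard errors, and filled points have an adjusted p under 0.05. DFR lies farthest from 0 in all 4 comparisons, and UFGT and RAP have no filled point.

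At the earlier step, from green to yellow, 2 of 8 members in rRNA-depleted libraries were called, both lower, against 7.06% of all rows called and 4.49% as lower. They were DFR (-5.11 ± 0.81, adjusted p = 0.00112) and F3H (-1.94 ± 0.47, adjusted p = 0.0188). Of the other enzymes, UFGT had a log2 fold change of -1.12 ± 0.43 (adjusted p = 0.169), with no overlap between yellow and green. The 4 remaining ones had log2 fold changes of -2.49 ± 0.93 for CHS (adjusted p = 0.151), -1.24 ± 0.39 for CHI (0.0761), -1.92 ± 0.72 for F3'H (0.151) and -1.39 ± 0.54 for ANS (0.177). For each of these 4, every yellow library lay below every green one, but the share of all rows separated so was not counted. Without yellow library 1, CHS to ANS were all called, 6 in number against 8.96% of all rows, with CHS at -5.50 (adjusted p = 5.36e-05), DFR at -6.50 and F3H at -2.72. DFR alone was called when green library 2 was left out (F3H adjusted p = 0.0613), likewise green library 3 (0.0682) and yellow library 3 (0.0946).

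Among poly(A)-depleted libraries 6 of 8 members were lower in yellow than in green fruit, where 10.8% of all rows were called and 7.85% as lower. DFR fell by 6.42 ± 1.05 on the log2 scale (adjusted p = 0.00902), CHS by 3.48 ± 0.51 (0.00537) and F3H by 2.62 ± 0.36 (0.00419). CHI fell by 2.31 ± 0.39 (adjusted p = 0.011). ANS had a log2 fold change of -2.28 ± 0.53 (adjusted p = 0.0305) and F3'H of -1.37 ± 0.32 (adjusted p = 0.0322). RAP was not called (0.63 ± 0.33, adjusted p = 0.173). It was called higher with only the 2 stages compared (0.64, adjusted p = 0.0428), where 55.5% of all rows were called, 25.9% as higher. Without brown library 1 it was called too (0.79, adjusted p = 0.0439), where 38.1% of all rows were called, 19.3% as higher. UFGT measured -0.35 ± 0.19 (adjusted p = 0.181), again with no overlap, though the share of all rows separated so was not counted. The sign of UFGT turned when TMM factors came from annotated genes (0.016) or only totals were used (0.22). Without yellow library 2 or yellow library 3 only 1 member was called, F3H, where 0.95% and 1.3% of all rows were called; CHS then had adjusted p = 0.0637 and 0.0679 and DFR 0.0777 and 0.0608, at log2 fold changes of -6.13 and -6.16 for DFR. ANS measured -2.93 without yellow library 1. Leaving out green library 1, 2 or 3 also ended the call of ANS (adjusted p = 0.0864, 0.0761 and 0.0949) and that of F3'H (0.0951, 0.0792 and 0.098).

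Between yellow and brown fruit edgeR called 0 members and 0 rows (0%) in either kind of library. In rRNA-depleted libraries 5 members had an unadjusted p under 0.05, as did 13.2% of all rows: CHS, F3H, DFR and ANS with lower values in brown, and UFGT with higher ones (1.06 ± 0.43, edgeR adjusted p = 0.328). DESeq2 called 3, namely F3H, DFR and ANS, and 2.6% of all rows. ANS differed most, at -3.33 ± 0.59 (edgeR adjusted p = 0.111). Its yellow and brown groups did not overlap, and neither did those of F3H, DFR and UFGT. The share of all rows separated so was not counted. DFR measured -2.72 ± 0.73 (adjusted p = 0.154) and CHS -2.77 ± 0.94 (adjusted p = 0.252), which turned to 0.24 without yellow library 1. Without yellow library 2, edgeR called 4 members as lower in brown, against 4.49% of all rows called and 3.64% as lower: ANS (-3.79, adjusted p = 0.000182), DFR (-3.22, 0.00362), F3H (-1.84, 0.0112) and CHS (-3.30, 0.0163). In poly(A)-depleted libraries 0 members and 9.20% of all rows had an unadjusted p under 0.05. DESeq2 called 0 members and 0 rows there, with no adjusted p for 2 of the 8 members. Without brown library 3 edgeR called 1 member, DFR (-2.90, adjusted p = 0.0106), in a fit that called 33.4% of all rows.

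The yellow libraries were not alike, over all rows as well as for these genes. Between 2 rRNA-depleted libraries of a stage, the chi-square per row, which grows with depth, was 182 to 518 at yellow. It was 38.6 to 70.7 at green and 62.5 to 191 at brown. Among poly(A)-depleted libraries it was 11.4 to 22.0 at yellow and 47.4 to 170 at brown. The part of this spread in the members' values was not tested. On the log2 scale (CPM with 0.5 added), rRNA-depleted yellow library 1 had gone 19.4% of the distance from the green to the brown mean for CHS, 36.1% for CHI, 31.2% for F3H, 21.1% for F3'H, 50.2% for DFR and 9.72% for ANS. Yellow library 2 had gone 111%, 76.2%, 88.2%, 144%, 92.7% and 68.9% for the same genes, and yellow library 3 97.2%, 110.2%, 71.9%, 95.2%, 76.8% and 35.7%. ANS had thus gone the smallest share of its own distance in all 3 libraries. Poly(A)-depleted ANS was also least advanced in yellow library 1 (41.4%), while DFR was in yellow libraries 2 and 3 (85.6% and 83.0%). There yellow library 1 stood at 78.4% for CHS and 94.4% for F3'H, farther toward brown than the rRNA-depleted library with the same number.

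**Figure D3:**
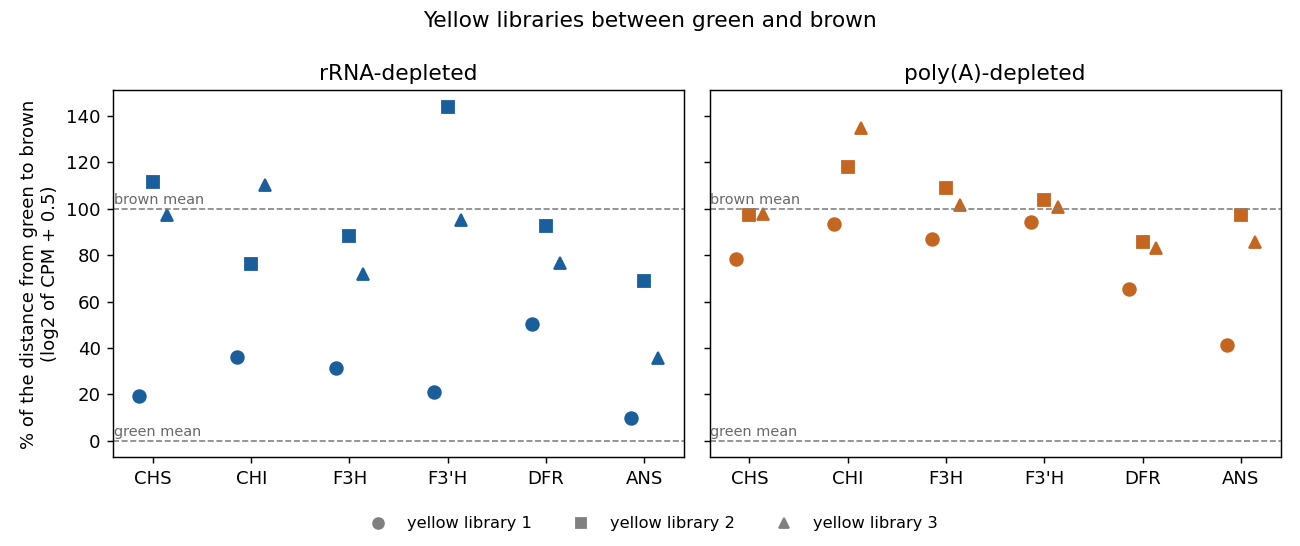
Position of each yellow library on the way from the green mean to the brown mean, in percent, on the log2 scale for CHS to ANS, rRNA-depleted on the left and poly(A)-depleted on the right. In rRNA-depleted yellow library 1 the 6 genes sit between 9.72% and 50.2%, below the other 2 yellow libraries for every gene.

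Within the yellow stage, 7 of 8 members were highest in the same-numbered library of both kinds and 5 had the same order of all 3 libraries. At green 5 members had the same highest library, and at brown 2. The share over all rows was not counted. CHS to ANS moved alike (Pearson r from 0.842 to 0.985 over rRNA-depleted libraries), so the members are not separate observations. At brown, 6 members were highest in rRNA-depleted library 3, which also had the largest intergenic share of its kind, and the part of that share was not tested.

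The members also fell unequally, which a ratio of 2 genes' counts within a library shows without any scaling; these ratios were chosen after the values were seen. Counts of ANS were 0.402, 0.398 and 0.340 times those of CHS in green rRNA-depleted libraries, 0.563, 2.46 and 4.26 times in yellow and 0.556, 0.781 and 0.413 times in brown ones. Every yellow ratio was above every green one, by a mean of 2.25 on the log2 scale, and the yellow and brown ratios overlapped. With poly(A) depletion the ratio was 0.363, 0.348 and 0.290 at green, 1.03, 0.462 and 0.613 at yellow and 0.510, 0.424 and 0.469 at brown. It was again higher at yellow than at green in every library.

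Counts of CHI were 0.141, 0.163 and 0.198 times those of CHS at green and 2.025, 2.35 and 1.42 times at brown in rRNA-depleted libraries, so CHI kept more of its green level. DFR went the other way, from 1.33, 2.30 and 3.62 times the CHS counts at green to 0.606, 0.523 and 0.227 times at brown, and from 1.06, 1.88 and 2.77 to 0.0581, 0.0247 and 0.240 in poly(A)-depleted libraries. With 3 libraries against 3 the smallest two-sided p of an exact permutation test is 0.1, which each of these differences reached except yellow against brown for ANS (exact p = 0.2 and 0.3). Over the 36 ratio comparisons computed the adjusted p was 0.157 at the least.

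**Figure D4:**
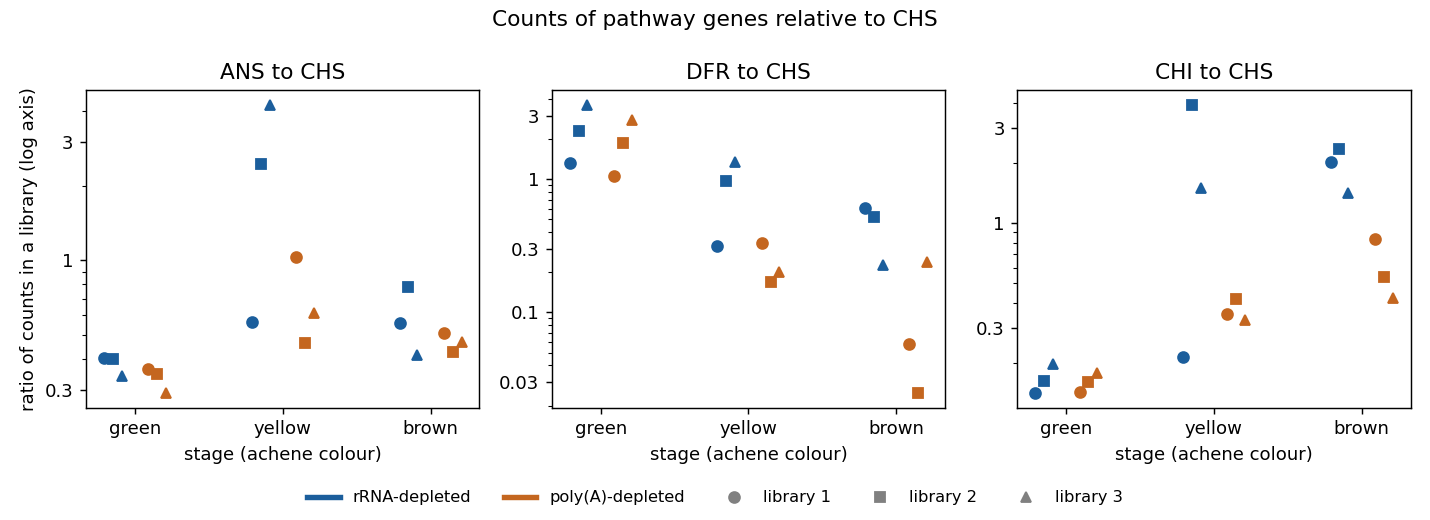
Ratio of the counts of ANS, DFR and CHI to those of CHS in each library (log axis) by stage, with colours for the kind of library and symbols for its number. The ANS ratio is higher at yellow than at green in every library, reaching 4.26, but overlaps between yellow and brown; the DFR ratio is lower at brown than at green in both kinds, and the CHI ratio is higher.

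Across the 9 rRNA-depleted libraries the log2 levels of CHS to ANS were alike, with Pearson r from 0.842 to 0.985 over their 15 pairs; the libraries share stage and depth, so this is a description. The closest pair was F3H and DFR (r = 0.985), then CHS and F3'H (r = 0.978). For CHS, F3'H ranked 46th in likeness among 10756 other annotated genes with at least 10 CPM at some stage, and 331 of these had an r over 0.95. For ANS its most like member, F3H, ranked 199th (r = 0.949). UFGT and RAP were unlike the rest, with r at most 0.480 with any of CHS to ANS, and 0.494 with each other. The 2 annotated genes outside the list with the highest mean r over the 8 members were FvH4_3g30850 (mean r = 0.779) and FvH4_3g13040 (0.776). FvH4_3g30850 measured 15.97 ± 1.84 CPM at green, 3.70 ± 3.39 at yellow and 2.38 ± 1.07 at brown (mean ± SD, n = 3).

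Depletion of polyadenylated RNA was compared over all 18 libraries scaled together, averaged over the stages. Of the 8 members, 5 were lower in poly(A)-depleted libraries (CHS, CHI, F3H, DFR and ANS), F3'H was not called, and UFGT and RAP were higher. Of all 52101 rows 77.2% were called, 34.1% as lower and 43% as higher, so a call was the common outcome; with library size only, 87.7% of called rows were higher, against 55.8%. The median was -1.42 over the members, 0.40 over all rows and -0.21 over annotated genes.

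Stage by stage, 2 members were called at green, CHI (-1.31) and F3H (-1.33), both lower, against 29.7% of all rows called and 8.2% as lower. At yellow 7 were called, the same 5 lower and 2 higher as in the mean, against 66% of all rows, 33.3% as lower and 32.7% as higher. At brown CHI alone was called (-1.73, adjusted p = 0.00782), against 30.6% of all rows and 19.3% as lower. CHS measured -2.64 at yellow (adjusted p = 0.0123) and -0.088 at brown (adjusted p = 0.935). The member median was -1.29 at green, -2.52 at yellow and -0.23 at brown.

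In the mean of the stages DFR was lowest, at 2194 ± 931, 80.5 ± 87.4 and 11.6 ± 3.06 CPM in green, yellow and brown rRNA-depleted libraries against 733 ± 349, 8.34 ± 5.99 and 2.36 ± 2.19 CPM in poly(A)-depleted ones (-2.38 ± 0.50, adjusted p = 0.000296). CHI followed at -1.93 ± 0.25 (adjusted p = 2.92e-06), then ANS at -1.52 ± 0.34 (0.000559), F3H at -1.50 ± 0.26 (5.56e-05) and CHS at -1.33 ± 0.48 (0.0159). The CHS value was -0.33 (adjusted p = 0.318) without rRNA-depleted yellow library 1. RAP was higher, at 2.995 ± 0.808, 4.46 ± 0.475 and 4.56 ± 1.75 CPM against 1.09 ± 0.234, 1.49 ± 1.17 and 2.502 ± 1.03 CPM (1.29 ± 0.34, adjusted p = 0.00177), and UFGT by 0.52 ± 0.19 (0.0174).

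Directions between library kinds rest on the scaling. Under the 4 scalings tried, CHS and F3'H changed sign, both with library size only (F3'H 0.82), and the other members kept theirs. With library size only, the median of all rows rose from 0.40 to 1.88, the CHS value was 0.036, and CHI (-0.52), UFGT (1.95) and RAP (2.73) were the only members called. Relative to the median of all rows, CHS, CHI, F3H, F3'H, DFR and ANS lay below it by 0.91 to 2.77 under the 4 scalings tried. UFGT and RAP lay above it by 0.071 to 0.92. A scaling shifts all rows nearly alike, so subtracting their median removes most of its effect. The likeness over the 4 scalings was thus largely fixed in advance and is no check on the directions.

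Whether the change over the stages differed between library kinds was tested by an interaction term. edgeR's quasi-likelihood test called 0 of 8 members and 0.0845% of all rows. DESeq2 called 0 members and 5.21% of all rows, but gave no adjusted p for 3 of the 8 members. At an unadjusted p under 0.05 there was 1 member, ANS, whose edgeR adjusted p was 0.235, against 18.9% of all rows. With a block for replicate numbers, which the labels do not call pairs, edgeR called ANS (adjusted p = 0.0129) and 17.4% of all rows. The test covers both changes of stage together, with 2 degrees of freedom, so its adjusted p is not that of the green to brown difference alone. The change of ANS from green to brown was 1.09 higher in poly(A)-depleted libraries on the log2 scale, that of F3'H 1.54 higher (adjusted p = 0.452) and that of DFR differed by -0.70 (adjusted p = 0.63), or by 0.35 with library size only. The median of all rows was -0.41. A p that misses the threshold does not show that the changes were equal.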

How the data were processed

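The authors deposited raw counts for each row in every library, unnormalized as the values show, and the exons of assembled transcripts with their start and end, an other kind of value. Tools are listed, with no role, in the submitters' processing notes: TopHat2 2.1.2, STAR 2.5.4b and Trim Galore 0.4.2. Counter, strand setting and build: not given in the sources used here. Using R 4.3.3, limma 3.58.1 and edgeR 4.0.16, counts went through TMM, filterByExpr, quasi-likelihood F test, all rows adjusted together. The 9 libraries of a kind were fitted together; all 18 entered the comparison of kinds and the interaction. All 8 members passed the filter in every fit. Fits were tested on simulated data. The members, lists and tests were chosen with earlier results of these data known. All 8 members are named everywhere; the genes most like them were named by mean r. Other pathway genes (PAL, C4H, 4CL, FLS, LAR, ANR, MYB10 and others) and achene or photosynthesis markers were to be looked up by name, which no file paired with an ID. Alternatives were DESeq2 1.42.0, 3 scalings, 2 filters, adjusted p under 0.01, a replicate block, fits of only 2 stages and leaving out each library. Nothing in the labels says that equal replicate numbers share fruit; p-values measure the spread between these pooled samples.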

Additional observations from a re-analysis of the deposited data

How the results depend on the processing

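The green to brown counts of members called (6 in each kind of library) stayed within 1.5 times under all 18 alternatives. They were 5 to 6 in rRNA-depleted libraries, in fits that called 7.45% to 21.1% of all rows. In poly(A)-depleted libraries they were 4 to 7, in fits that called 1.94% to 25.9% of all rows. Yellow against green in rRNA-depleted libraries was 2 in the main test. It gave 1 at an adjusted p under 0.01 (3.65% of all rows called), with library size only (5.57%) and with only the 2 stages compared (7.29%). It gave 1 to 6 when libraries were left out in turn (3.75% to 8.96% of all rows). In poly(A)-depleted libraries it gave 3, not 6, at an adjusted p under 0.01 (1.5% of all rows called). When libraries were left out it gave 1 to 7 (0.95% to 41.6% of all rows). Brown against yellow was 0 in the main test. In rRNA-depleted libraries it gave 3 with DESeq2 (2.6% of all rows called) and 1 with no low-count filter (0.215%). Without single libraries it gave 0 to 4 there (0% to 4.49%), and 0 to 1 in poly(A)-depleted libraries (0% to 33.4%). The comparison of library kinds gave 3, not 7, with library size only, where CHS turned to 0.036 and 77.5% of all rows were called, against 77.2%. The cause of these moves was not tested. DESeq2 gave no adjusted p for CHS in any rRNA-depleted comparison. It also gave none for 2 members between yellow and brown poly(A)-depleted fruit, for 3 in the interaction and for 1 between library kinds.

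A replicate block changed the interaction from 0 to 1 member (ANS, adjusted p = 0.0129), and from 0.0845% to 17.4% of all rows called. It ended the call of F3'H between green and brown poly(A)-depleted libraries (0.0589) and that of CHS between library kinds (0.0528). No other member's call changed. Same-numbered libraries of the 2 kinds had deviations that correlated over 0.1 in 8 of 9 pairs (r from -0.073 to 0.461), a hint from the data and not from the design; within a kind, correlations ran from -0.193 to 0.477.

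Over single members, 1150 alternative values kept direction and call, 59 lost the call, 19 gained it and 43 changed sign, 1 of them (CHS above) from a called value. Counts over all rows moved more: 3672 to 10221 (7126 in the main test) for green to brown in rRNA-depleted libraries, 935 to 12657 (2726) in poly(A)-depleted ones, 1798 to 4759 (3478) and 471 to 26362 (5207) for green to yellow, up to 2273 and 16266 (0) for yellow to brown, and 1 to 9086 (44) for the interaction. With TMM over annotated genes, 54.1% of called rows were higher in brown than green poly(A)-depleted fruit, against 22.6%, and 70.1% in yellow, against 27.3%; for the interaction the share was 34.1%, 65.2% with that scaling, 67.7% with median-of-ratios and 0% with library size only. Counts of UFGT (73 to 486) and RAP (4 to 139) in rRNA-depleted libraries limit what can be seen for both.

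The other sign changes were in values not called before or after. For UFGT from green to brown, rRNA-depleted values were 0.078 with TMM over annotated genes, 0.020 with library size only, 0.047 with no filter, 0.0041 with at least 1 CPM and -0.54 to 0.34 without single libraries; poly(A)-depleted values were 0.12, 0.16 (the same 2 scalings) and -0.23 to 0.085. UFGT from green to yellow gave 0.016 and 0.22 in poly(A)-depleted libraries. RAP from green to yellow in rRNA-depleted libraries gave -0.014 with the replicate block and -0.35 to 0.74 without single libraries. From yellow to brown in rRNA-depleted libraries, leaving out single libraries gave -3.30 to 0.24 for CHS and -1.66 to 0.56 for F3'H. In poly(A)-depleted libraries that step gave, with library size only, -0.068 for CHI, -0.27 for F3'H, -0.062 for UFGT and -0.13 for RAP. With TMM over annotated genes it gave -0.083 for F3'H and -0.053 for RAP, with the replicate block -0.049 for RAP, and for F3H 0.023 with DESeq2 and 0.024 with median-of-ratios. Without single libraries it ran from -0.15 to 0.19 for F3H, -0.26 to 0.31 for F3'H and -0.23 to 0.29 for RAP. The interaction with library size only was 0.0047 for CHI, 0.35 for DFR, 0.14 for UFGT and 0.069 for RAP, and without single libraries -0.60 to 0.047 for CHI and -0.52 to 0.057 for UFGT. F3'H between library kinds was 0.82 with library size only and -0.71 to 0.036 without single libraries.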

Other observations

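Genes next to the members by ID number were looked at too. Of the 32 rows that are the nearest 2 numbers on either side of a member, 31 were tested between green and brown rRNA-depleted fruit, and edgeR called 1 higher and 4 lower in brown; over all rows, 14.5% were called and 10.1% as lower. The largest of these differences was in FvH4_5g01180, the ID next to ANS, which was lower (log2 fold change -3.25, adjusted p = 0.00288); it is singled out after its value was seen. FvH4_7g01170, the ID next to CHS, ranged from 256 to 3787 counts over the 18 libraries and had a log2 fold change of -0.39 (adjusted p = 0.46), against -5.26 for CHS. The files name none of these neighbours.

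ANS counts relative to DFR were above the green range in every later library. The ratio was 0.302, 0.174 and 0.0939 in green, 1.78, 2.55 and 3.16 in yellow and 0.917, 1.49 and 1.82 in brown rRNA-depleted libraries. In poly(A)-depleted libraries it was 0.344, 0.185 and 0.105, then 3.12, 2.73 and 3.08, then 8.79, 17.2 and 1.96, where DFR had only 28, 15 and 157 counts at brown. Both later stages against green gave the smallest p that 3 against 3 libraries allow (exact permutation test, two-sided, p = 0.1). Over the 36 ratio comparisons the adjusted p was 0.157. This ratio too was chosen after the values were seen, and DFR counts could not be separated with confidence from those of an antisense row.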
